A study of Mus musculus with 12 samples.

Results

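The 10 immediate early genes described here were Fos, Jun, Junb, Egr1, Atf3, Ier2, Klf4, Klf6, Dusp1 and Nr4a1. They were taken by gene symbol from the 40840 genes of a count table of mouse pancreas, and all 10 were in it. Libraries of polyadenylated RNA were made from whole pancreas, and the mice were C57BL/6J males, an inbred laboratory strain, killed at 25 months (Old) or at 5 months (Young) of age. All mice had chow at will and lived singly for 4 weeks on a cycle of 12 h light and 12 h dark. Per the labels tissue was taken in the dark, although 4 and 8 h are light-phase hours of such a cycle, and the lighting on the day of collection is not stated. Each age had 6 libraries, 1 at each of 4, 8, 12, 16, 20 and 24 h of labelled zeitgeber time, so neither age has a repeated time. Neither group carried a transgene or received a drug, and how many mice gave RNA to each library is not stated in the labels, so p-values below measure the spread between single libraries. The design asks which transcripts differ with age and which follow the hour of the day.

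Immediate early genes are transcribed within minutes of a stimulus to a cell, from factors such as SRF and CREB that are already present, and without new protein synthesis. Most encode transcription factors or regulators of the same signalling pathways, and their mRNAs are short-lived. In exocrine pancreas they are known to be induced by secretagogues, by injury and by the handling of tissue, as when acinar cells are isolated.

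The 250 bases before the first transcribed base of 5 of the genes are shown, 5′ to 3′ on the gene's strand, from RefSeq's annotation of GRCm38.p6. Fos and Dusp1 are shown as examples with several matches to the core of the cAMP response element, the site bound by CREB. Nr4a1 had the most matches of the promoters examined and is not shown. Jun, Klf4 and Klf6 are shown because most of the results below are about them. Capitals mark TGACG or its reverse complement CGTCA, and the whole palindrome TGACGTCA where it occurs.
Fos (chr12:85473640-85473889, plus strand): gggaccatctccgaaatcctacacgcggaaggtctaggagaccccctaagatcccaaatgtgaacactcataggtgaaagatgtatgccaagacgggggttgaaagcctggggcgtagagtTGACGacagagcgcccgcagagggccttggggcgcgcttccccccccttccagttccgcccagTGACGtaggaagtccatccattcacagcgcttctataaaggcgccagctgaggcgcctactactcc
Dusp1 (chr17:26508473-26508722, minus strand): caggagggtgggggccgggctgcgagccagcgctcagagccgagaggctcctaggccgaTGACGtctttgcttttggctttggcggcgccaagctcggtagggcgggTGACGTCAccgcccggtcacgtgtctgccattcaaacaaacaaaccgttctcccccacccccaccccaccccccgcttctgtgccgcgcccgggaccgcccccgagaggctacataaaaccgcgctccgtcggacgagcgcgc
Jun (chr4:95052223-95052472, minus strand): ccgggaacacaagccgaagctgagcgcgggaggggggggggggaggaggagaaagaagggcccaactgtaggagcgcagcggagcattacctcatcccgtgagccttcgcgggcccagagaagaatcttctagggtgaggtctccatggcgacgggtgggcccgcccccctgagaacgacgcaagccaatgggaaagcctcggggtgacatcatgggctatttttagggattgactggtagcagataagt
Klf4 (chr4:55532476-55532725, minus strand): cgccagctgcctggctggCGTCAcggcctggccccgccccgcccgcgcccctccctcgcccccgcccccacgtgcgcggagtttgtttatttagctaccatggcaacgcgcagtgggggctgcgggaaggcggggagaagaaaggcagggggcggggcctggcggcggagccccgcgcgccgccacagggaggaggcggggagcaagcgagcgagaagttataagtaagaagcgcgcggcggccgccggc
Klf6 (chr13:5861239-5861488, plus strand): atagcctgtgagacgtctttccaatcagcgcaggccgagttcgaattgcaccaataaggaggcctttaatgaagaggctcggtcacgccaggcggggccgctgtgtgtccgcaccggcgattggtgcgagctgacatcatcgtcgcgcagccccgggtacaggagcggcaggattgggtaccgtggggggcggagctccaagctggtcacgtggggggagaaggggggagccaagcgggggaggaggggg

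TGACG was searched on both strands of the 8 promoters examined, those of all members except Ier2 and Egr1. It was found in 6 of the 8, in Fos, Junb, Atf3, Klf4, Dusp1 and Nr4a1, and in 17.9% of the 27025 promoters of the same length. Fos had 2 matches, 129 and 66 bases before the start. Dusp1 had 3, of which the pair 143 and 140 bases before the start overlap as the palindrome TGACGTCA. That palindrome was found in 1 of the 8, against 1.62% of all promoters. Nr4a1 had 4 matches, between 233 and 40 bases before the start, and Klf4 had 1, 232 bases before it. Jun and Klf6 had none in this window. TATAAA was found in Fos alone of the 8, 33 bases before the start, against 13.0% of all promoters. GGGCGG, the core of the box bound by Sp1 and by Krüppel-like factors, was found in 7 of the 8, all but Junb, against 32.9%. TGACG and GGGCGG share no match. These matches are descriptions of letters and not of binding.

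The library labelled Young 4 h stood apart from the other 11. Its total was 2918805 counts, against 1030189 to 1404038 in the 11. A list of 5 neuron markers (Snap25, Syt1, Rbfox3, Stmn2 and Nefl) summed to 1110 CPM (counts scaled to each library's total) in it, against 0 to 4.28 in Old and 0 to 5.82 in the other 5 Young libraries, and a list of 5 glial markers summed to 1830 CPM, against 16.0 to 37.7 in Old and 21.3 to 27.3 in the other Young libraries. The acinar markers that define exocrine pancreas summed to 102000 CPM in it and to 172000 to 251000 CPM in the 11, with 6 of the 7 detected in the 11. Results are therefore given without this library (11 libraries) and with it (12 libraries). A single count was worth 0.712 to 0.971 CPM in the 11 libraries and 0.343 CPM in Young 4 h. Intervals in CPM below are exact Poisson 95% intervals and cover counting error only. For a count of 0 they reach 2.72 CPM (Old 16 h) to 3.58 CPM (Young 16 h).

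Over the 11 libraries the mean level of the 10 genes ran from 0.492 CPM for Fos, which lay above 43.3% of the 26337 genes with a count, to 27.0 CPM for Jun, which lay above 92.9% of them. Only Jun, Ier2, Klf4 and Klf6 had enough counts to be tested for age or time (at least 7.98 CPM in 5 of the 11 libraries), and 6 of the 10 did not. Per kilobase of exon, the order was Jun at 8.46 ± 3.21, Ier2 at 6.74 ± 3.50, Klf6 at 3.21 ± 1.71, Klf4 at 3.04 ± 1.66, Junb at 1.38 ± 0.705, Egr1 at 0.796 ± 0.950, Dusp1 at 0.782 ± 0.556, Nr4a1 at 0.596 ± 0.286, Atf3 at 0.510 ± 0.384 and Fos at 0.209 ± 0.288 CPM per kb (SD, n = 11 libraries). The range of the mean ± SD of each gene overlapped that of its neighbour in this order. The summed level of the 10 genes had a median of 61.73 CPM (47.2 to 105.1) in Old and 71.41 CPM (57.51 to 113.1) in the 5 Young libraries, and 93.87 CPM in Young 4 h. The 12 h library had the highest sum in both ages, but the gene with the largest part of it differed. In Old 12 h, Jun was at 51.8 CPM, Klf4 at 8.50 CPM and Klf6 at 6.95 CPM. In Young 12 h, Jun was at 27.2 CPM, Klf4 at 20.4 CPM and Klf6 at 29.8 CPM.

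**Figure D1:**
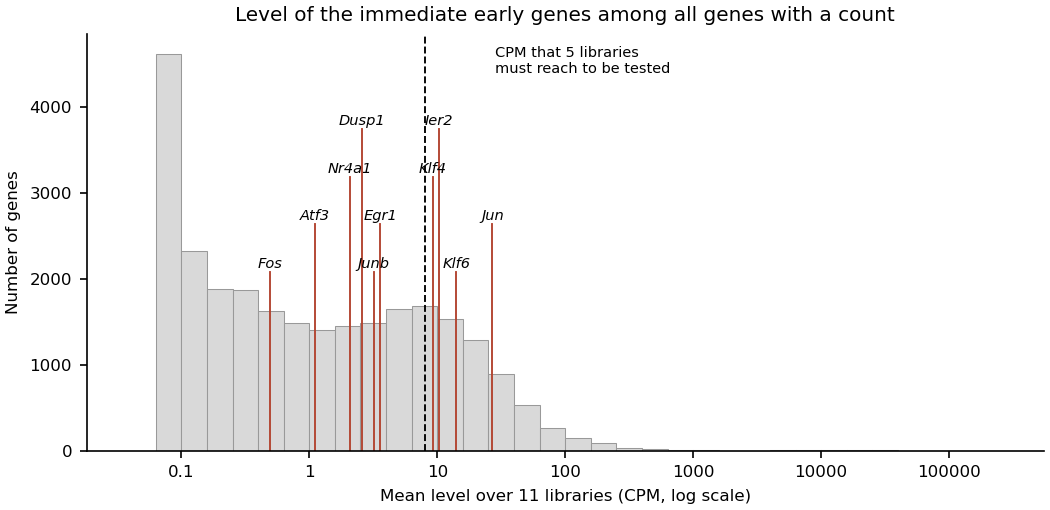
Histogram of mean level over 11 libraries (x axis, CPM on a log scale) for all 26337 genes with a count (y axis, number of genes), with a line for each of the 10 immediate early genes and a dashed line at the level needed for testing. Jun lies farthest right at 27.0 CPM and Fos farthest left at 0.492 CPM.

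Fos, Jun, Junb and Atf3 encode basic leucine zipper proteins. Fos and Jun proteins pair into the AP-1 transcription factor, Junb can replace Jun in the pair, and Atf3 is a stress-induced relative that often represses. Fos (chromosome 12, 85473890 to 85477274, plus strand) had 3, 0, 1, 0, 1 and 1 counts in Old at 4, 8, 12, 16, 20 and 24 h, and 12, 0, 0, 0, 1 and 0 counts in Young at the same times. Its transcript was thus at or under 3 counts in all 11 libraries other than Young 4 h, where 12 counts equal 4.11 CPM (2.12 to 7.18). The promoter with the TATAAA box and 2 TGACG matches printed above therefore belongs to the scarcest transcript of the 10.

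Jun (chromosome 4, 95049036 to 95052222, minus strand) was the most abundant. Its level in Old was 23.5, 12.5, 51.8, 24.3, 17.6 and 28.2 CPM at 4, 8, 12, 16, 20 and 24 h, and in Young it was 39.1, 31.6, 27.2, 32.0, 29.0 and 18.9 CPM. The Old 12 h library was the highest of the 12 in CPM, on 67 counts, with an interval of 40.1 to 65.7 CPM, and Old 8 h was the lowest at 16 counts, with an interval of 7.17 to 20.4 CPM. These intervals do not overlap, whereas the 5 Young libraries lay inside the range of Old. Between the ages, intervals were apart at 8 h, with Old lower (Young at 22.3 to 43.3 CPM). They were also apart at 12 h, with Old higher (Young at 18.6 to 38.4 CPM). Jun averaged 26.3 ± 13.6 CPM in Old (SD, n = 6) and 27.7 ± 5.31 CPM in Young without 4 h (SD, n = 5). Exons of an antisense gene, Junos, overlap those of Jun, and Junos had 64 counts over the 12 libraries. Whether the counting used strand is not stated in any source used here.

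Junb (chromosome 8, minus strand) averaged 3.51 ± 1.61 CPM in Old and 2.79 ± 1.73 CPM in Young without 4 h (SD, n = 6 and 5), from 1 to 7 counts a library. Its exons overlap those of Prdx2, which lies on the opposite strand and had 423 counts over the 12 libraries. Atf3 (chromosome 1, minus strand) averaged 1.03 ± 0.808 CPM in Old and 1.18 ± 0.940 CPM in Young without 4 h, from 0 to 3 counts a library. For each of these genes the counting intervals overlapped between every pair of libraries.

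Egr1, Klf4 and Klf6 encode zinc finger transcription factors. Egr1 is induced through SRF sites by growth factors and secretagogues, Klf4 is known as a regulator of epithelial differentiation, and Klf6 is known in liver and other organs as a gene induced by injury. Egr1 (chromosome 18, 34861207 to 34864956, plus strand) had 3, 0, 16, 1, 1 and 9 counts in Old at 4, 8, 12, 16, 20 and 24 h, and 24, 1, 11, 2, 4 and 0 counts in Young. The 12 h library was the highest of its age in both, at 12.4 CPM (7.07 to 20.1) in Old and 9.36 CPM (4.67 to 16.7) in Young. The interval of Old 12 h stood clear of that of Old 8 h (0 to 2.89), Old 16 h (0.0187 to 4.11), Old 20 h (0.0202 to 4.45) and Old 4 h (0.441 to 6.24) but not of that of Old 24 h (3.52 to 14.6). The interval of Young 12 h stood clear of that of Young 24 h (0 to 2.79) and, narrowly, of that of Young 8 h (0.0210 to 4.63). It overlapped those of Young 4 h (5.27 to 12.2), Young 16 h (0.235 to 7.01) and Young 20 h (0.93 to 8.74). Between the ages the intervals were apart at 24 h, where Old was the higher. With 1 library at each age and time, these differences compare libraries and not hours or ages. Egr1 averaged 3.96 ± 4.98 CPM in Old (SD, n = 6) and 3.11 ± 3.72 CPM in Young without 4 h (SD, n = 5), so its spread was larger than its mean in both ages.

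Klf4 (chromosome 4, 55527137 to 55532475, minus strand) was at 10.7, 10.2, 8.50, 2.21, 7.98 and 8.56 CPM in Old at 4, 8, 12, 16, 20 and 24 h. In Young it was at 5.14, 7.47, 20.4, 15.5, 5.97 and 4.54 CPM. Young was high at 12 and 16 h and low at the other 4 times, while Old was low at 16 h, where 3 counts were seen, and between 7.98 and 10.7 CPM at the other 5 times. At 16 h the counting intervals of the ages did not overlap, at 0.456 to 6.47 CPM in Old and 8.88 to 25.2 CPM in Young. Such a gap was also seen for Jun at 8 and 12 h, Egr1 at 24 h and Klf6 at 12 h. Of these, Jun at 12 h and Egr1 at 24 h were higher in Old. How many of all genes show such a gap was not examined.

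Klf6 (chromosome 13, 5861489 to 5870393, plus strand) was at 12.8, 4.71, 6.95, 5.90, 15.2 and 19.7 CPM in Old at 4, 8, 12, 16, 20 and 24 h. In Young it was at 18.2, 8.30, 29.8, 18.4, 14.5 and 18.9 CPM. Old was low from 8 to 16 h and high at 20 and 24 h, while Young was highest at 12 h and lowest at 8 h. At 12 h the counting intervals of the ages did not overlap, at 3.18 to 13.2 CPM in Old and 20.7 to 41.4 CPM in Young, and at 20 and 24 h the values of the ages were close.

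Nr4a1 encodes an orphan nuclear receptor that is itself transcribed as an immediate early gene, and its promoter held the most TGACG matches of the 8. Nr4a1 (chromosome 15, plus strand) averaged 2.19 ± 1.10 CPM in Old and 1.98 ± 0.996 CPM in Young without 4 h (SD, n = 6 and 5), from 1 to 5 counts a library. Dusp1 encodes a phosphatase that inactivates MAP kinases and so limits the signal that induces it. Dusp1 (chromosome 17, minus strand) averaged 1.80 ± 0.732 CPM in Old and 3.54 ± 2.39 CPM in Young without 4 h, from 1 to 7 counts a library. From 8 to 24 h its level in CPM was lower in Old than in Young at 4 of 5 times, all but 24 h. At 20 h each age had 3 counts, so the difference there was in library total alone. Dusp1 had 14 counts in 6 Old libraries, Old 4 h included, and 20 counts in 5 Young libraries. The intervals of the ages overlapped at every time. Its exons overlap those of Ergic1, which lies on the opposite strand and had 648 counts over the 12 libraries.

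Ier2 encodes a small nuclear protein without a known DNA-binding domain. Ier2 (chromosome 8, 84661331 to 84662852, minus strand) was at 8.55, 17.3, 14.7, 5.90, 1.60 and 17.1 CPM in Old at 4, 8, 12, 16, 20 and 24 h. In Young it was at 6.17, 15.8, 11.1, 6.79, 5.12 and 9.08 CPM. Both ages were highest at 8 h and lowest at 20 h, and Old 24 h was nearly as high as Old 8 h. The lowest library, Old 20 h, held 2 counts and had an interval of 0.193 to 5.77 CPM.

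**Figure D2:**
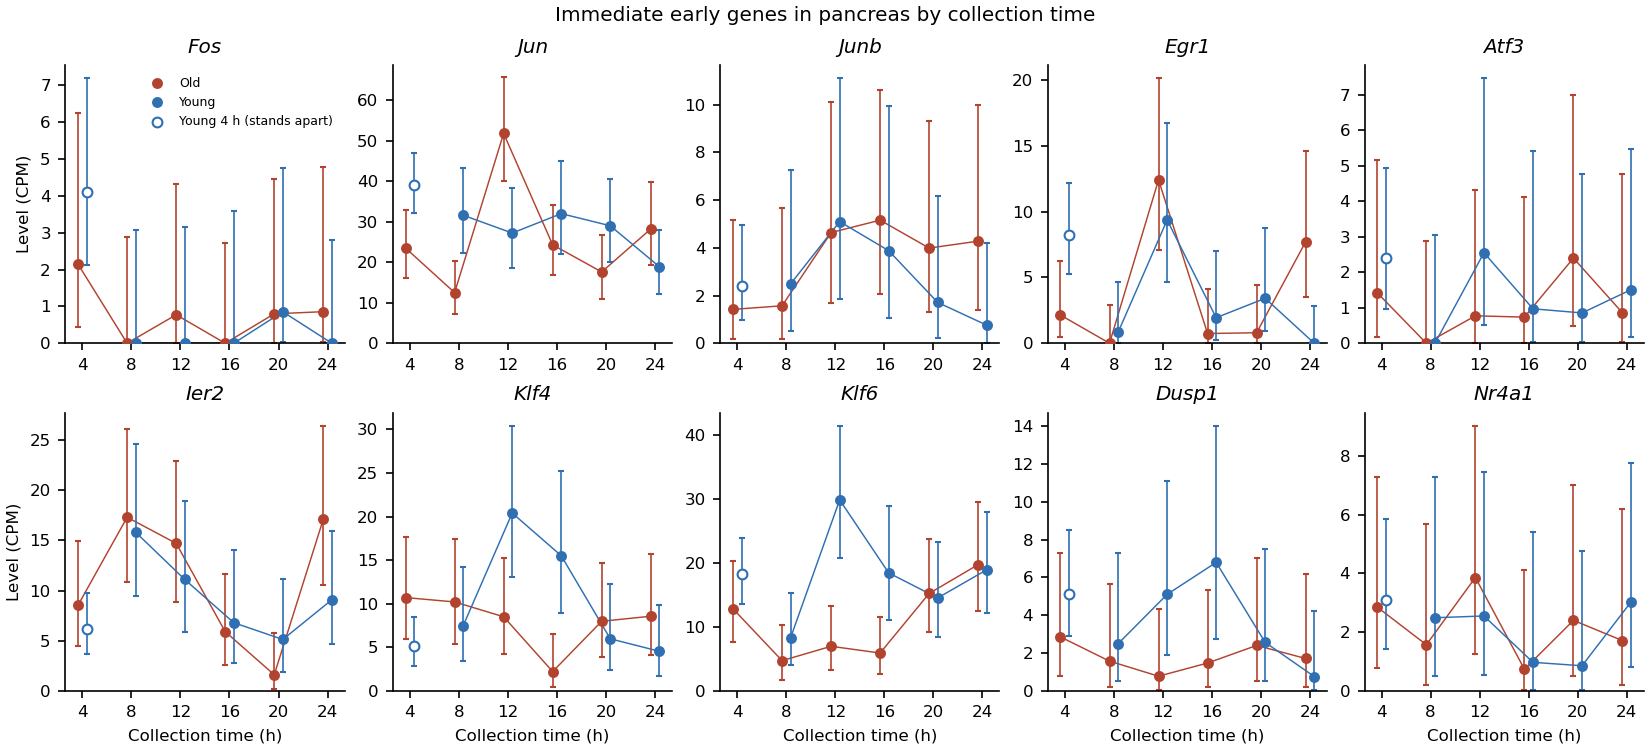
Level of each of the 10 genes (y axes, CPM, each from 0) against collection time (x axes, h) in Old and Young, 1 library a point, with exact Poisson 95% counting intervals as bars and Young 4 h drawn as an open point. Jun stands at 51.8 CPM in Old 12 h, Egr1 is highest at 12 h in both ages, and Ier2 is highest at 8 h in both.

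No member passed the test for age. Of the 4 tested, 0 passed a Benjamini-Hochberg adjusted p under 0.05 in edgeR's quasi-likelihood test, against 0.205% of the 5852 genes tested in 11 libraries and 0.0172% of the 5808 tested in 12. DESeq2 and limma-voom also called 0 of the 4 in both, with the adjusted p of Ier2 and Klf4 set to missing by DESeq2 in 11 libraries. At an unadjusted p under 0.05, 1 of the 4, Klf6, passed in 11 libraries and 0 in 12, against 6.15% and 5.80% of all genes. The log2 fold change of Old over Young was -0.82 ± 0.31 (SE, 95% interval -1.46 to -0.17) for Klf6, with an edgeR p of 0.0153 and an adjusted p of 0.709. Klf6 was lower in Old at 3 of 5 times. With Young 4 h its log2 fold change was -0.70 ± 0.35 (interval -1.44 to 0.04, adjusted p = 0.784 in edgeR), and without Young 12 h it was -0.46.

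Klf4 had a log2 fold change of -0.40 ± 0.37 (interval -1.16 to 0.36) and Jun of -0.08 ± 0.24 (interval -0.59 to 0.42) in 11 libraries. Ier2 had an interval of -0.70 to 0.71 around a log2 fold change of 0.00. These intervals bound the age difference of Jun at less than a log2 unit in either direction, and leave larger ones of Klf4 within reach. With Young 4 h the log2 fold changes were -0.05 ± 0.45 for Klf4, -0.10 ± 0.27 for Jun and 0.34 ± 0.43 for Ier2, with adjusted p of 0.988, 0.954 and 0.867 in edgeR. The median log2 fold change of the 4 was -0.243 in 11 libraries, beside -0.000837 over all genes tested, and -0.0752 in 12, beside -0.0185. For 0 of the 10, the 4 tested members included, did the CPM of the 6 Old and 5 Young libraries fall in separate ranges. Of all genes tested, 0.854% did.

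**Figure D3:**
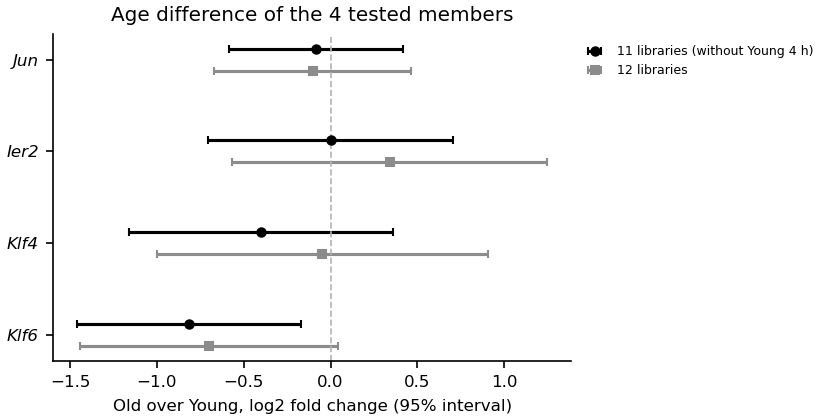
Log2 fold change of Old over Young (x axis) for Jun, Ier2, Klf4 and Klf6 from edgeR, with 95% intervals as bars, in 11 libraries (without Young 4 h) and in 12. The interval of Klf6 lies below 0 in 11 libraries, at -1.46 to -0.17, and reaches 0.04 in 12; the others span 0 in both.

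Fibroblast transcripts also varied between the libraries. The 7 markers of fibroblasts and stellate cells (Col1a1, Col1a2, Col3a1, Dcn, Lum, Pdgfra and Pdgfrb) were all detected, and 2 of the 7 had a higher mean in Old than in Young without 4 h. They summed to 255, 231, 192, 82.6, 188 and 408 CPM in Old at 4, 8, 12, 16, 20 and 24 h, and to 265, 408, 436, 313 and 311 CPM in Young from 8 to 24 h. Old 16 h had the lowest sum and also the lowest Klf4, and Old 24 h had the highest sum of Old and also the highest Klf6. In Young without 4 h, the 12 and 16 h libraries had the highest sums and also the highest Klf4, at 20.4 and 15.5 CPM. Young 12 h also had the highest Klf6, at 29.8 CPM, and Young 8 h the lowest sum and the lowest Klf6, at 8.30 CPM. Some libraries of both ages did not pair in this way. Old 20 h had the second highest Klf6 of Old, at 15.2 CPM, with a marker sum of 188 CPM. Old 8 h had the lowest Klf6, at 4.71 CPM, with a sum of 231 CPM. Old 24 h, with the highest sum of Old, had Klf4 at 8.56 CPM. Young 8 h, with the lowest sum of Young without 4 h, had Klf4 at 7.47 CPM. That was above Young 20 h at 5.97 CPM and Young 24 h at 4.54 CPM. Young 16 h, with the highest sum, had Klf6 at 18.4 CPM, below Young 24 h at 18.9 CPM. Young 4 h had a sum of 173 CPM and Klf6 at 18.2 CPM. Macrophage markers, 7 genes, were also highest in Old 24 h, at 279 CPM, against 31.7 to 113 CPM in the other Old libraries and 62.3 to 116 CPM in Young without 4 h. Old 24 h was also the highest of the 11 in B cell markers at 260 CPM, T cell markers at 26.5 CPM and red blood cell markers at 58.2 CPM, where the Young libraries without 4 h reached 65.0, 3.78 and 15.9 CPM. In whole tissue, fewer cells of a type and less RNA per cell cannot be told apart. The part of these marker levels in the Klf4 and Klf6 values was not tested. Nor was their part in the Egr1 and Ier2 values of Old 24 h.

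**Figure D4:**
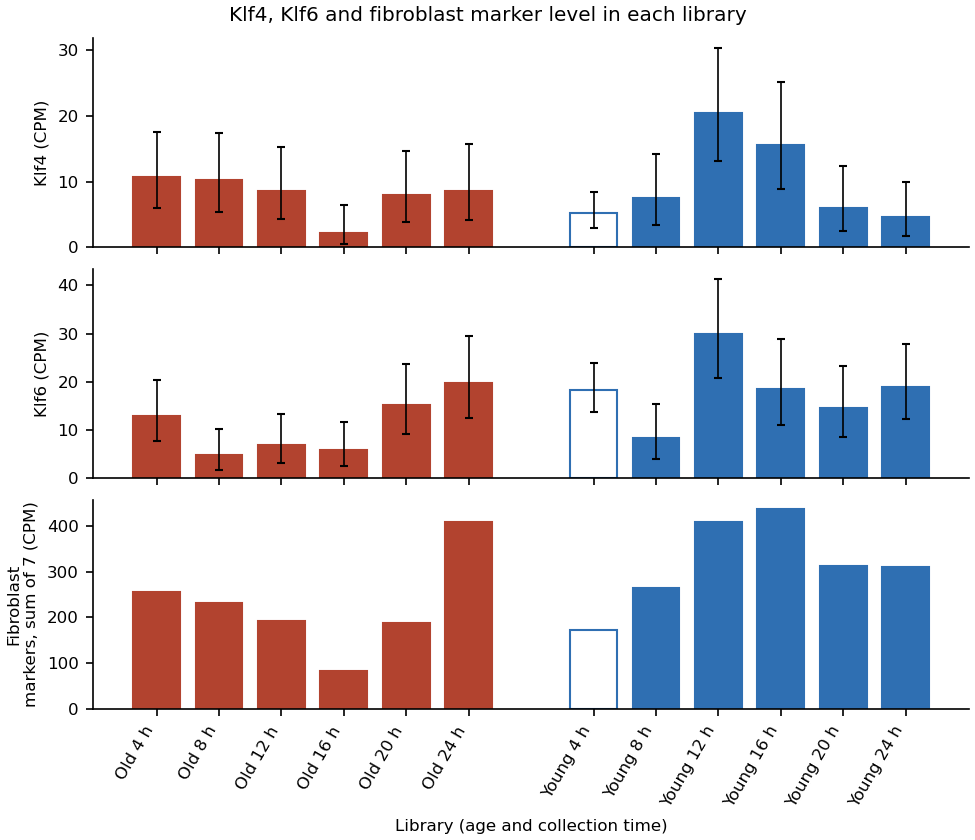
Level of Klf4, of Klf6 and of the 7 summed fibroblast markers (y axes, CPM) in each library (x axis, Old libraries by time and then Young), with exact Poisson 95% counting intervals as error lines for the 2 genes and Young 4 h drawn as an open bar. Old 16 h is lowest in Klf4 at 2.21 CPM and in the marker sum at 82.6 CPM, and Old 24 h is the highest Old library in Klf6 at 19.7 CPM and in the marker sum at 408 CPM.

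No member passed for a 24 h curve common to both ages. In edgeR's test of the cosine and sine terms 0 of 4 were called at an adjusted p under 0.05, against 1.49% of genes in 11 libraries and 0.155% in 12, and DESeq2 and limma-voom called 0 as well. At an unadjusted p under 0.05, 1 of the 4, Ier2, passed in 11 libraries (11.9% of all genes) and 0 in 12 (10.5%). Ier2 had an amplitude (how far the peak of the fitted curve lies above its mean) of 0.79 log2 units with a peak at 6.8 h, with an edgeR p of 0.0125 and an adjusted p of 0.24 in 11 libraries. A least squares curve through log2 CPM gave 0.790 ± 0.256 log2 units and a peak at 6.97 ± 1.2 h over both ages (n = 11 libraries). Errors of least squares curves are SE throughout. Taken alone, Old (n = 6) gave an amplitude of 0.900 ± 0.506 and a peak at 7.38 ± 2.1 h. Young (n = 5) gave an amplitude of 0.688 ± 0.0690 and a peak at 6.45 ± 0.36 h. With a mean, a cosine and a sine term fitted to 5 libraries, these small Young errors are themselves uncertain. Ier2 had no unadjusted p under 0.05 for a curve in Young alone. With Young 4 h the Young curve had an amplitude of 0.422 ± 0.405 and a peak at 10.0 ± 3.7 h. With Young 4 h the edgeR amplitude was 0.61 and the adjusted p 0.582. The median amplitude of the 4 was 0.378 log2 units in 11 libraries, beside 0.231 over all genes tested, and 0.471 in 12, beside 0.271.

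Within a single age no member passed either. In Old, 0 of 4 were called in 11 libraries (0.752% of all genes) and in 12 (0.0%). At an unadjusted p under 0.05 Klf6 alone passed in Old, in 11 libraries (11.0% of all genes) and in 12 (3.46%). Klf6 had an amplitude in Old of 0.95 log2 units with a peak at 23.3 h, with an edgeR p of 0.0117 and an adjusted p of 0.274 in 11 libraries. In Young, 0 of 4 were called in 11 libraries (0.171%) and in 12 (0.0517%). At an unadjusted p under 0.05 Klf4 alone passed in Young, in 11 libraries (5.33%) and in 12 (13.2%). Klf4 had an amplitude in Young of 1.15 log2 units with a peak at 13.6 h, with an edgeR p of 0.0131 and an adjusted p of 0.785 in 11 libraries, where the DESeq2 p was 0.0627. In 12 libraries the amplitude was 1.29 log2 units and the peak 13.8 h, with an edgeR p of 0.00213 and an adjusted p of 0.19. DESeq2 and limma-voom called 0 of the 4 in either age, with the adjusted p of Klf4 in Young set to missing by DESeq2 in 12 libraries.

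The difference between the curves of the ages was tested directly. 0 of 4 members and 0.0% of all genes were called at an adjusted p under 0.05 in edgeR in both 11 and 12 libraries, and DESeq2 and limma-voom called 0 members. At an unadjusted p under 0.05 there were 2 of the 4, Klf4 and Klf6, against 4.07% of genes in 11 libraries and 4.72% in 12. In 11 libraries the edgeR p was 0.0127 for Klf4 and 0.0293 for Klf6, both with an adjusted p of 1.00. In DESeq2 these p values were 0.0542 for Klf4 and 0.101 for Klf6, and in limma-voom 0.0139 and 0.0381. The least squares curve of Klf4 peaked at 4.63 ± 1.9 h in Old and at 13.6 ± 0.75 h in Young, with amplitudes of 0.591 ± 0.291 and 0.928 ± 0.197 log2 units. In Old, Klf4 lay between 7.98 and 10.7 CPM except for Old 16 h, on 3 counts. Its curve in Old had no unadjusted p under 0.05, and its amplitude there ranged from 0.24 to 0.90 over the alternatives. The Old peak hour therefore does not establish a shift with age. That of Klf6 peaked at 23.3 ± 0.86 h in Old and at 16.9 ± 3.9 h in Young, with amplitudes of 0.814 ± 0.182 and 0.394 ± 0.502 log2 units. Without Young 12 h the edgeR p of the curve difference was 0.327 for Klf6 and 0.0443 for Klf4.

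Without a filter on low counts all 10 genes could be fitted, and 0 of the 10 were called in edgeR in any of these 5 tests. For age the calls over all genes were then 0.125% of 26337 in 11 libraries and 0.233% of 28805 in 12. For the shared curve they were 0.683% and 2.25%, for the curve in Old 0.573% and 0.0486%, for the curve in Young 0.106% and 3.97%, and for the curve difference 0.0911% and 0.392%. Of the 6 genes left out by the filter, Egr1 alone had an unadjusted p under 0.05, of 0.0320 in edgeR for the curve in Young in 11 libraries, with an adjusted p of 0.953.

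The time of the highest library differed between the genes. The 12 h library was the highest of Old for 3 of the 10 (Jun, Egr1 and Nr4a1). Among the 4 tested members this held for Jun alone, against 18.9% of the genes tested. It was the highest of the 5 Young libraries for 5 of the 10 (Junb, Egr1, Atf3, Klf4 and Klf6), for Atf3 on 3 counts. Among the 4 tested members this held for Klf4 and Klf6, against 31.1% of the genes tested. Heat shock genes, which also respond to handling, summed to 160 to 541 CPM in Old and 171 to 569 CPM in Young without 4 h, and were highest at 16 h in both ages, at 541 CPM in Old and 569 CPM in Young. Between members, correlations were weak. Across the 11 libraries Pearson's r between the 4 tested members ran from -0.291 for Ier2 and Klf6 to 0.414 for Klf4 and Klf6, a description over libraries that share tissue makeup and depth.

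In Young 4 h, only Fos of the 10 lay above all 11 other libraries in CPM, against 53.7% of the genes tested and 34.1% of the genes with a count. Its heat shock sum was 2110 CPM. Arc, a neuronal immediate early gene, had 28 counts (9.59 CPM) there and at most 2.14 CPM in the 11, and Homer1, which encodes a postsynaptic scaffold, was at 37.3 CPM there and at most 15.3 CPM in the 11. Rhob, a small GTPase induced as an immediate early gene, was at 43.9 CPM there and at most 12.6 CPM in the 11. The other 9 members stayed inside the range of the 11, among them Jun at 39.1 CPM, Egr1 at 8.22 CPM, Klf6 at 18.2 CPM and Dusp1 at 5.14 CPM.

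Relatives of the 10 genes were examined in lists chosen by function. Of 12 AP-1 and bZIP relatives 4 were tested in 11 libraries, of 17 other immediate early transcription factors 5, of 25 induced feedback regulators 7, of 11 induced secreted and structural genes 2, of 19 upstream kinases and factors 14, of 6 neuronal activity genes 1 and of 7 Klf relatives 4. In edgeR's age test at an adjusted p under 0.05, 0 were called in each list, higher or lower in Old, against 0.205% of all genes in 11 libraries and 0.0172% in 12. In the test of a shared 24 h curve the single call was Klf9, in 11 libraries, against 1.49% of all genes. Klf9, a Krüppel-like factor induced by glucocorticoids, had an amplitude of 0.50 log2 units and a peak at 9.9 h (adjusted p = 0.0229, edgeR), and an adjusted p of 0.37 in 12 libraries. It was at 34.9, 64.3, 53.3, 38.3, 31.1 and 35.1 CPM in Old from 4 to 24 h, and at 56.5, 71.5, 37.9, 33.3 and 31.8 CPM in Young from 8 to 24 h. Both ages were highest at 8 and 12 h. The call depended on single libraries: the adjusted p was 0.0566 in DESeq2, and with 1 library left out it ranged from 0.0265 to 0.138 in edgeR, above 0.05 when the library left out was Old 8 h, Old 12 h, Old 20 h, Young 8 h, Young 12 h or Young 24 h. Its curve peaked at 10.1 ± 1.0 h in Old and 9.50 ± 1.1 h in Young by least squares.

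No other named relative that was tested was called at an adjusted p under 0.05 in edgeR. Jund, the AP-1 subunit that is expressed without a stimulus, averaged 50.4 ± 17.4 CPM in Old and 42.2 ± 4.64 CPM in Young without 4 h (SD, n = 6 and 5). Atf4, the translationally controlled factor of the integrated stress response, averaged 120 ± 19.2 CPM in Old and 130 ± 19.4 CPM in Young. Myc averaged 18.7 ± 5.39 CPM in Old and 17.1 ± 2.24 CPM in Young, and Btg2, an antiproliferative gene, 23.5 ± 5.57 CPM in Old and 23.9 ± 5.84 CPM in Young. Among feedback regulators, the kinase gene Plk2 averaged 88.8 ± 23.5 CPM in Old and 87.6 ± 18.9 CPM in Young, and Zfp36l1, which encodes an mRNA decay factor, 29.5 ± 12.6 CPM in Old and 24.2 ± 7.63 CPM in Young. Upstream, the transcription factor gene Mef2d averaged 37.8 ± 6.94 CPM in Old and 44.0 ± 8.79 CPM in Young. Thbs1, a secreted matrix protein gene, averaged 7.49 ± 4.15 CPM in Old and 9.22 ± 6.37 CPM in Young.

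The genes whose pattern was most like the mean of the 4 tested members over the 11 libraries, by Pearson's r among 5709 genes, were Ltbp4 (0.916), Pls3 (0.915), Crkl (0.889), Snx2 (0.879), Timp3 (0.877), Col6a1 (0.877), Irf2bpl (0.871) and Timp2 (0.862). The libraries share tissue makeup and depth, and the pattern itself averages 4 genes of few counts.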

How the data were processed

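The deposited table held 1 column of whole counts per gene for each of the 12 libraries. STAR did the alignment and HTSeq the counting, on GRCm38 (mm10), per the submitters' processing notes, although the workbook is named after featureCounts; versions, annotation and strand setting are not stated. Libraries were mapped to age and time by their labels. Totals were 1030189 to 1404038 counts, and 2918805 in Young 4 h. CPM here is the count scaled to the library's total.

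Genes were kept by filterByExpr by age (minimum count 10), which left 5808 genes in 12 libraries and 5852 in 11, with TMM scaling. Quasi-likelihood models (edgeR 4.0.16, R 4.3.3) held age and the cosine and sine terms for 24 h, with Benjamini-Hochberg adjustment over all genes tested. Curves for each age shared 1 estimate of spread. Single curves were least squares fits to log2 CPM (prior count 2). Alternatives were RLE scaling, TMM without digestive enzyme genes, 2 other filters, DESeq2 1.42.0, limma-voom (limma 3.58.1), other time terms, collection time as a block, and leaving out each library. The age and shared curve fits were tested on simulated data with log2 fold changes or amplitudes of 2. These were larger than those fitted for the tested members, so the power to find smaller differences was not measured. Figures were drawn with matplotlib 3.10.9. Named genes were the members, every called gene of each other list (or its 2 most abundant tested genes), Arc, and the 8 genes most like the members' mean. A gene that this rule takes is not reported here. Members and lists were chosen with earlier results of these data known.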

Additional observations from a re-analysis of the deposited data

Results flagged for a closer look

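Among 30 combinations of gene and group of libraries, 3 held a library far from the rest of its group, and chance flags about 1 in 20 where groups are separate and values untied. Fos was at 4.11 CPM in Young 4 h, on 12 counts, and the nearest other Young library was at 0.854 CPM. Without that library, Fos at 0.854 CPM in Young 20 h stood apart from 4 libraries at 0, on 1 count, which any single count would do beside 4 zeros. Klf4 was at 2.21 CPM in Old 16 h, on 3 counts, and the nearest other Old library was at 7.98 CPM.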

How the results depend on the processing

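Counts of members called were 0 in all 10 tests under all alternatives, with 1 exception. In the test of a curve in Young with 12 libraries the count ranged from 0 to 1 when libraries were left out in turn: Klf4 was called without Young 8 h (adjusted p = 0.0485) and without Young 24 h (adjusted p = 0.0374), where 318 and 435 of all genes were called. With collection time as a replicate block, 0 members were called for age in 11 and in 12 libraries, and the log2 fold change of Klf6 was -0.85 in 11 libraries; time itself cannot be blocked in the tests of curves. The labels number no replicates, and the block pairs Old and Young libraries of the same hour.

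The sign of the age difference of Klf6 held under all alternatives (leave-one-out range -1.003 to -0.46 in 11 libraries and -0.86 to -0.38 in 12). Signs that turned belong to log2 fold changes with an adjusted p of at least 0.84, or with none given by DESeq2. With 11 libraries, Ier2 was at -0.011 without a filter, -0.0074 with at least 1 CPM in 6 libraries, -0.0066 in DESeq2, -0.11 in limma-voom and -0.015 with a curve for each age; its leave-one-out range was -0.26 to 0.17, and -0.028 to 0.52 in 12 libraries. Jun ranged from -0.40 to 0.062 in 11 libraries and -0.38 to 0.058 in 12, and Klf4 from -0.40 to 0.29 in 12 libraries. The cause was not tested. The filter left 6 of the 10 genes untested.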
